A study of Mus musculus with 4 samples.

Results

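Ephrins and Eph receptors were examined in RNA of the mouse dentate gyrus through every probe set annotated to Efna3, Efna5, Efnb1, Efnb2, Efnb3, Epha4, Epha5, Epha7, Ephb2 or Ephb6. The annotation held 18 such probe sets of 22626 in all, for 9 of these 10 genes and of 12393 genes named. No probe set was named Ephb2 there, so that gene was not analysed here. Over the 4 arrays, 14 of the 18 probe sets averaged 50 or more in signal, 6 for 4 ligand genes and 8 for 4 receptor genes. The single probe set of Efna5 and the remaining 3 of Efnb1 and Efnb2 stayed below it.

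All groups were C57Bl/6 mice, and the study's methods describe the purchased animals as males of 8 weeks. The ECS group received 11 sessions of bilateral electroconvulsive stimulation (ECS), an animal model of electroconvulsive therapy, under isoflurane, and the sham group went through these sessions but received no current. The fluoxetine group drank this selective serotonin reuptake inhibitor at 22 mg/kg per day for 4 weeks in water with saccharin. The vehicle group is labelled as given water, and the sources used here do not say whether it contained saccharin. The labels place the sham and ECS samples 6 h after the last session, whereas the methods give 24 h. RNA of each group was pooled on 1 Affymetrix array. Fluoxetine samples were chosen for a small frequency facilitation at the mossy fiber synapse (n = 3), so that pool is no random sample of treated mice, and the sources differ on whether the ECS samples were chosen in this way too. There were no replicates, so no difference carries an SD or a p-value.

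Eph receptors are the largest family of receptor tyrosine kinases, and ephrins are their ligands. Both sit in the membrane and act at contacts between cells: the receptor signals forward into its own cell, and the ephrin can signal in reverse into the cell that carries it. A-type ephrins are anchored by a lipid and B-type ephrins cross the membrane. In the hippocampus the family is known for guiding axons and for the shape and plasticity of dendritic spines, and some members act between neurons and astrocytes.

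The values are signal intensities, and the deposited arrays had no common scale. Each array was therefore multiplied by 1 factor, 0.773 to 1.29, which brought all 4 to the same median over the 13422 probe sets past the signal filter. Levels below are these scaled signals, and differences are log2 ratios of ECS over sham or fluoxetine over vehicle. Over the 13422 probe sets the median log2 ratio was then 0.01 with ECS and -0.0030 with fluoxetine, against -0.10 and 0.12 as deposited. A probe set was called higher or lower at a difference of at least 1.5-fold. The only comparison of untreated pools is sham over vehicle, which also differ in handling. Its typical deviation at a given signal, the scaled median absolute deviation over the 500 probe sets nearest in signal, is called the control spread. For the 14 probe sets it was 0.13 to 0.41 on the log2 scale.

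Among the receptors, Ephb6 was higher in both treated pools. EphB6 is a receptor whose kinase domain lacks catalytic activity and which signals through partner receptors. The scaled signal of its only probe set, 1418051_at, was 83.7 (sham), 399.8 (ECS), 92.2 (vehicle) and 292 (fluoxetine). The control pools lay close together, and both treated pools lay far above them. The log2 ratios were 2.26 with ECS and 1.66 with fluoxetine, 4.78-fold and 3.16-fold, while the log2 ratio of sham over vehicle was -0.14 at a control spread of 0.23. Only 38 of the 13422 probe sets had a higher ratio with ECS, and 87 had a higher ratio with fluoxetine. Over the alternative scalings and low-signal settings the Ephb6 log2 ratio was 2.06 to 2.27 with ECS and 1.51 to 1.79 with fluoxetine. With the control arrays exchanged it was 2.12 and 1.80. No second probe set was there to repeat the measurement. In a bulk sample such as this, fewer or more cells of a type and less or more RNA per cell cannot be told apart.

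Among the ligands, Efnb2 was lower in both treated pools. It encodes ephrin-B2, a transmembrane ligand that binds EphB receptors and EphA4. Probe set 1419639_at had a scaled signal of 252 (sham), 123 (ECS), 179 (vehicle) and 61.4 (fluoxetine). Probe set 1419638_at had 113, 70.4, 85.8 and 32.1 for the same pools. On each of them the 4 arrays stood in the same order, with sham highest, vehicle next, ECS below both and fluoxetine lowest. The plot of scaled signals by pool sets this beside the other members.

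The log2 ratios of Efnb2 were -1.04 with ECS and -1.54 with fluoxetine on 1419639_at, at a control spread of 0.25. Of the 13422 probe sets, 116 had a lower ratio than 1419639_at with ECS and 44 with fluoxetine. On 1419638_at they were -0.68 and -1.42, at a control spread of 0.37. The sham pool was itself above the vehicle pool, by 0.49 and 0.39, though not as deposited, where all arrays keep their own scale and the median of sham over vehicle over all probe sets was -0.50. When ECS was set against the vehicle pool instead, the log2 ratios were -0.54 and -0.29, both under 1.5-fold. The call with ECS therefore rested on the sham array, whereas that with fluoxetine did not rest on the vehicle array, since against the sham pool the ratios were -2.03 and -1.81. With scaled signals below 50 taken as 50, the fluoxetine ratio of 1419638_at was -0.78, and with 16 added to every signal its ECS ratio was -0.57, just under 1.5-fold. The dimmer Efnb2 probe sets had scaled signals of 6.72 to 17.4 (1449549_at) and 1.55 to 4.77 (1449548_at) over the 4 arrays, and their ratios were not read.

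**Figure D1:**
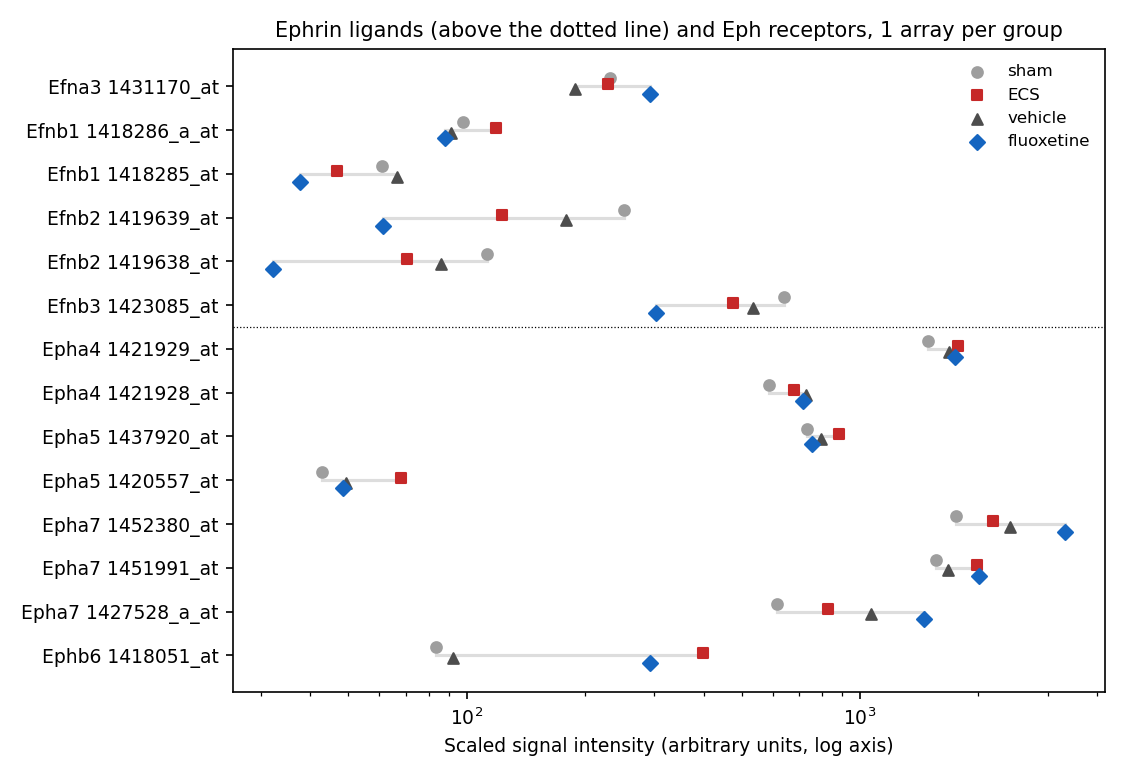
Scaled signal intensity (log axis, arbitrary units) of the 14 ephrin and Eph receptor probe sets past the signal filter in the sham, ECS, vehicle and fluoxetine pools, 1 array each, not comparable between probe sets. Ephb6 goes from 83.7 and 92.2 in the control pools to 399.8 and 292 in the treated pools, and 1419639_at of Efnb2 from 252 and 179 to 123 and 61.4.

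The 250 bases before the annotated start of Ephb6 and of Efnb2 are shown because these genes differed most and in opposite directions. They were taken from RefSeq (GRCm38.p6), at chr6:41605261-41605510 on the plus strand for Ephb6 and chr8:8661243-8661492 on the minus strand for Efnb2, and are written 5′ to 3′ along the gene. Capitals mark every match, on either strand, to the GC box (GGGCGG), the CCAAT box (CCAAT) or TGACG, an arm of the cAMP response element.
Ephb6: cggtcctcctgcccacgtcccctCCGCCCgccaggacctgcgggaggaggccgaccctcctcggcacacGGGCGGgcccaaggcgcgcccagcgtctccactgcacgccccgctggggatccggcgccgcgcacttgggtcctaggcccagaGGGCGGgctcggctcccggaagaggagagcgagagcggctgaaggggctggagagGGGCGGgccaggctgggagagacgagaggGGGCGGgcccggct
Efnb2: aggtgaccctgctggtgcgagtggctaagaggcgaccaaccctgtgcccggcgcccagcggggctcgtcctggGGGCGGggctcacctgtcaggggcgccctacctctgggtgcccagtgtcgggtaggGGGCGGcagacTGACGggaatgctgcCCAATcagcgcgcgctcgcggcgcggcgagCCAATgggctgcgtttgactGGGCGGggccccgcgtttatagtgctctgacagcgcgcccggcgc
Ephb6 had 5 GC boxes and Efnb2 had 3, and a GC box was present in 32.7% of 32851 such windows. The CCAAT box occurred 2 times before Efnb2 and not before Ephb6 (33.8% of windows hold it), and TGACG occurred once, before Efnb2 (17.8%). Neither window matched the full cAMP response element (TGACGTCA, 1.55% of windows), which contains TGACG, the AP-1 element (TGANTCA, 6.75%) or the Egr element (GCGNGGGCG, 4.70%). G and C made up 76.8% of the Ephb6 window and 72% of the Efnb2 window, against a median of 52.4%. The windows of the other members that had one held 60% (Efnb1) to 74.8% (Efna5). GC boxes were not particular to these genes either, with 4 before Efna5 but 0 before Efnb1. The CCAAT box also occurred before Efnb1, Epha4, Epha7 and Ephb2, and TGACG also before Efnb1 and Epha4. An Egr element occurred before Efna5 and in 1 window of Efna3. These are letters in a fixed window, and no binding was measured.

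Efnb3 and Efnb1 encode the other B-type ligands. Efnb3 (ephrin-B3, 1423085_at) had a scaled signal of 642 (sham), 475 (ECS), 533 (vehicle) and 302 (fluoxetine). Both treated pools were below both controls. Its log2 ratios were -0.43 and -0.82 at a control spread of 0.18, so that only the difference with fluoxetine reached 1.5-fold. Sham was above vehicle by 0.27.

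The probe sets of Efnb1 (ephrin-B1) did not give the same picture. On 1418285_at the scaled signals were 61.0 (sham), 46.7 (ECS), 66.5 (vehicle) and 37.7 (fluoxetine), with log2 ratios of -0.38 and -0.82. On 1418286_a_at they were 98.1, 119, 91.1 and 88.2, with log2 ratios of 0.28 and -0.05. The first is a dim probe set with a control spread of 0.41, and with signals below 50 taken as 50 its fluoxetine ratio was -0.41, under 1.5-fold. The third, 1451591_a_at, was below the filter, with scaled signals of 33.1 to 52.4.

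The A-type ligands were represented by Efna3 alone. Ephrin-A3, found on astrocytes, is known as a ligand of EphA4. Its probe set 1431170_at had scaled signals of 231 (sham), 229 (ECS), 189 (vehicle) and 292 (fluoxetine). The ECS ratio was -0.01 and the fluoxetine ratio 0.63, at a control spread of 0.21. The vehicle pool was the lowest of the 4, and against the sham pool the fluoxetine ratio was 0.34, under 1.5-fold. The Efna5 probe set had scaled signals of 6.07 to 16.6 and gave no usable ratio.

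The A-type receptors differed less than Ephb6. Epha7, a receptor with known roles in dendrite and spine development, had 3 probe sets, and on each of them both treated pools were above their own control. On 1452380_at the scaled signal was 1750.3 (sham), 2179 (ECS), 2412 (vehicle) and 3322 (fluoxetine). On 1451991_at it was 1559, 1981, 1669.9 and 2006, and on 1427528_a_at 616, 831, 1065 and 1455. The log2 ratios were 0.32, 0.35 and 0.43 with ECS and 0.46, 0.26 and 0.45 with fluoxetine, in the same order of probe sets. All were under 1.5-fold, at control spreads of 0.13 to 0.15. As deposited, the fluoxetine ratio of 1452380_at was 0.59 and passed it.

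On 2 of the Epha7 probe sets the control pools differed as much as the treated pools did from their controls, or more. The log2 ratio of sham over vehicle was -0.46 on 1452380_at and -0.79 on 1427528_a_at, but -0.10 on 1451991_at. At -0.79 the difference passed 1.5-fold, as it did toward lower values for 1.62% of all probe sets. On 1452380_at and 1427528_a_at the ECS pool lay below the vehicle pool, with log2 ratios against it of -0.15 and -0.36. Only on 1451991_at did both treated pools lie above both controls. The direction with ECS thus depended on the control array for 2 of the 3 probe sets. On the same probe sets the log2 ratios of fluoxetine over sham were 0.92 and 1.24, both past 1.5-fold, so that the size with fluoxetine depended on it too.

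Epha4 and Epha5 differed little with fluoxetine. EphA4 binds ephrins of both types and EphA5 binds A-type ephrins. On 1421929_at of Epha4 the scaled signals were 1490.4 (sham), 1774 (ECS), 1685 (vehicle) and 1746 (fluoxetine), with log2 ratios of 0.25 and 0.05. On 1421928_at they were 586, 677, 731 and 715, with log2 ratios of 0.21 and -0.03, and the log2 ratio of ECS over vehicle was -0.11.

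Epha5 had scaled signals of 732, 883, 796 and 753 on 1437920_at, in the order sham, ECS, vehicle and fluoxetine. The log2 ratios were 0.27 with ECS and -0.08 with fluoxetine. On the dim probe set 1420557_at they were 0.67 and -0.02, from signals of 42.7 (sham) and 68.0 (ECS), and the control spread was 0.41. That call was lost as deposited, where the log2 ratio was 0.56, and with each low-signal setting, the lowest value being 0.44. The small negative fluoxetine ratios of Epha4 and Epha5, and that of 1418286_a_at of Efnb1, turned positive as deposited, at 0.04 to 0.10.

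**Figure D2:**
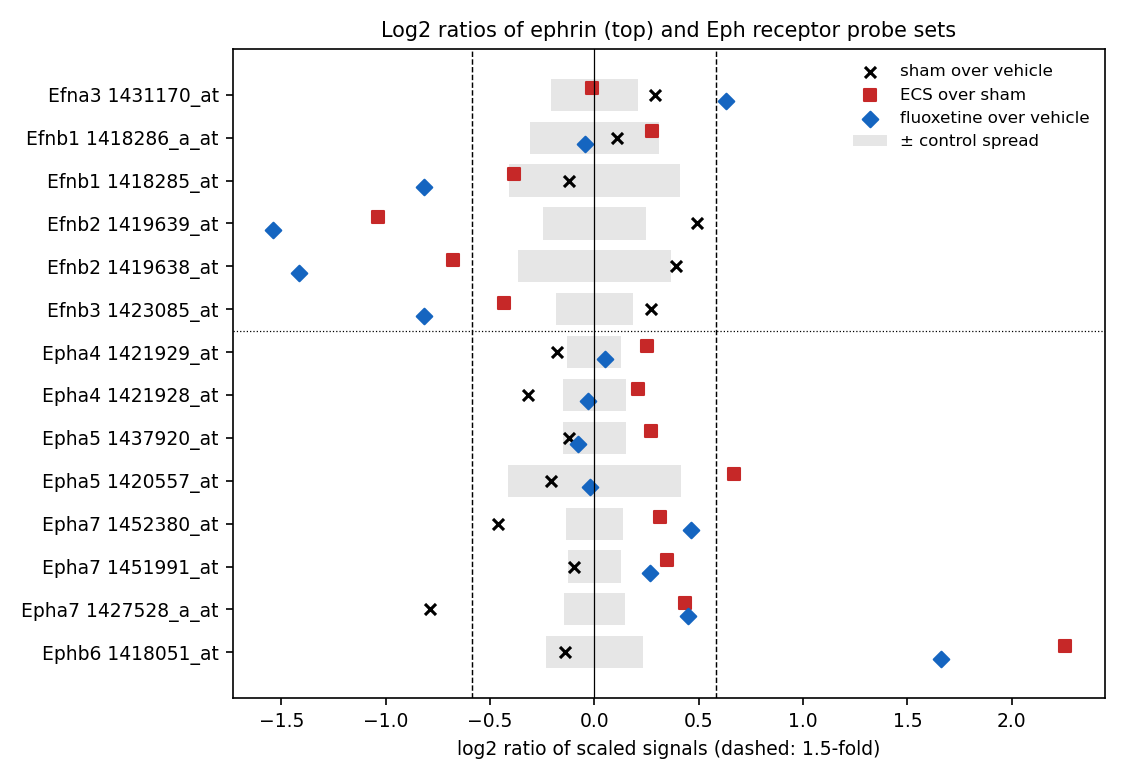
Log2 ratios of ECS over sham (squares), fluoxetine over vehicle (diamonds) and sham over vehicle (crosses) for the 14 probe sets, with ephrins above and Eph receptors below the dotted line, where grey bars span the control spread on either side of 0 and dashed lines mark 1.5-fold. The ratios of Ephb6 (2.26 and 1.66) and of both Efnb2 probe sets (-1.04 and -1.54, -0.68 and -1.42) pass 1.5-fold with both treatments, and sham over vehicle of 1427528_a_at of Epha7 is at -0.79.

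Counted together, 2 of the 14 probe sets were higher with ECS (Ephb6 and the dim one of Epha5) and 2 were lower (both of Efnb2). For all 13422 probe sets the shares with ECS were 5.31% higher and 4.16% lower. With fluoxetine 2 were higher (Ephb6 and Efna3) and 4 were lower (both of Efnb2, Efnb3 and 1 of Efnb1), against 5.69% and 4.94% of all probe sets. With both treatments 1 was higher and 2 were lower, while 2.82% and 1.66% of all probe sets were. The members called are few, 3 genes with ECS, 5 with fluoxetine and 2 with both. With the signals as deposited, ECS was higher for 3.81% and lower for 6.51% of all probe sets, and fluoxetine for 8.64% and 3.11%.

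Ligands and receptors lay mostly on different sides of 0 with ECS, as the plot of ratios by probe set shows. All 8 receptor probe sets had a log2 ratio above 0, with a median of 0.33. Of the 6 ligand probe sets 5 had a ratio below 0, and the median of the 6 was -0.41. Over all 13422 probe sets the median was 0.01. Among the 5, Efna3 was at only -0.01, at a control spread of 0.21. The ligand probe set above 0 was 1418286_a_at of Efnb1, at 0.28. With fluoxetine the receptors were divided, with 5 probe sets above 0 and 3 below. Of the ligand probe sets 1 was above 0 (Efna3) and 5 were below. The fluoxetine medians were 0.16 for receptors and -0.82 for ligands. The median over all 14 was 0.26 with ECS and -0.03 with fluoxetine. However, the sham pool was below the vehicle pool on all 8 receptor probe sets, with a median of -0.19, and above it on 5 of the 6 ligand probe sets, with a median of 0.28. A ratio to the sham array therefore includes this difference between control pools, and with the control arrays exchanged the median over all 14 was -0.02 with ECS and 0.21 with fluoxetine. ECS over vehicle was below 0 on 1421928_at of Epha4 (-0.11) and on 1452380_at and 1427528_a_at of Epha7 (-0.15 and -0.36). It was above 0 on 1418286_a_at of Efnb1 (0.38) and on Efna3 (0.28). The other receptor probe sets stayed above 0 and the other ligand probe sets below 0. Probe sets of 1 gene share their transcript, so these stand for 8 genes and not 14 separate measurements.

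Where each treated pool is set against both control pools, 3 of the 14 probe sets had both treated pools above both controls (Ephb6, 1451991_at of Epha7 and 1421929_at of Epha4). In 4 of them both treated pools were below both controls (both of Efnb2, Efnb3 and 1418285_at of Efnb1). This was so for 24.2% and 22.4% of all probe sets, so that the counts over the members are close to the background. In the plot of both ratios over all probe sets, Ephb6 lies among the highest and Efnb2 among the lowest, with the other members nearer to the bulk.

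**Figure D3:**
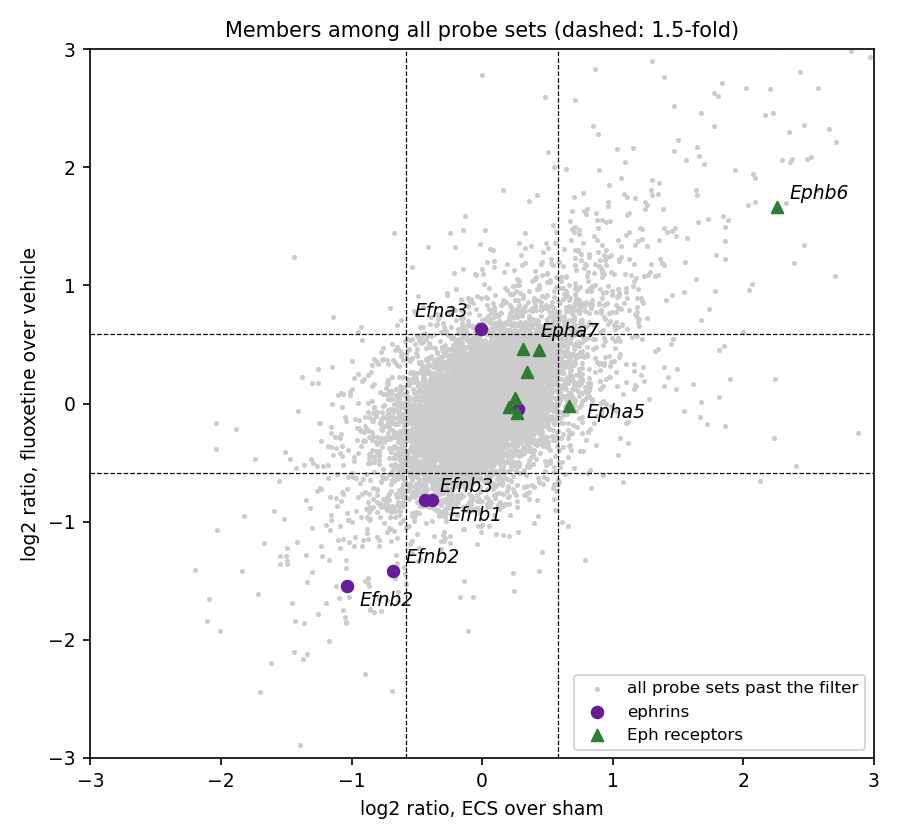
Log2 ratio with fluoxetine against that with ECS for the 13422 probe sets past the filter (grey), with ephrins as circles and Eph receptors as triangles, dashed lines at 1.5-fold and 27 probe sets beyond the axes. Ephb6 is at 2.26 and 1.66 in the upper right, the Efnb2 probe sets are in the lower left, and most receptors lie near the centre.

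The rest of the family was mostly too dim to read. Of 15 probe sets for 10 further ephrin and Eph receptor genes, 3 passed the signal filter. Epha6, an A-type receptor, had scaled signals of 118 (sham), 187 (ECS), 128 (vehicle) and 165 (fluoxetine). Its log2 ratios were 0.66 and 0.37 at a control spread of 0.26, and the ECS ratio was 0.55 as deposited, under 1.5-fold. Epha3 had 0.32 and 0.04, and the ligand gene Efna1 -0.05 and 0.21. Among those below the filter, Ephb3 had scaled signals of 50.9, 18.9, 30.8 and 71.1 in the sham, ECS, vehicle and fluoxetine pools. The probe sets of Ephb4, Epha1, Epha2 and Epha8 had 1.00 to 20.9.

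Genes that act downstream of or beside the family were described from a list of 55 measured genes, each by its brightest probe set. With ECS 2 were higher and none lower, and with fluoxetine 5 were higher and 1 lower. Over all 7935 genes, 5.34% were higher and 4.18% lower with ECS, and 5.82% and 5.13% with fluoxetine. For the list the medians were 0.01 and 0.04, near the 0.01 and -0.01 of all genes. Of 14 kinases, adaptors and cytoskeletal effectors of forward signalling and 10 adaptors and PDZ partners of B-type ephrins, none was called with ECS. The calls with ECS came from 9 proteases and phosphatases and from 10 partners at synapses, on astrocytes and in axon guidance, 1 each. The plot of ratios by list shows how few of these genes left the range within 1.5-fold.

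Reln and Adam19 were higher with both treatments. Reln encodes reelin, a secreted protein that guides neuronal positioning. Its scaled signals were 594 (sham), 924 (ECS), 495 (vehicle) and 789 (fluoxetine), with log2 ratios of 0.64 and 0.67. As deposited its ECS ratio was 0.53, under 1.5-fold. For Reln sham was above vehicle by 0.26, and fluoxetine was less than 1.5-fold above sham. Adam19, a membrane metalloprotease, had scaled signals of 57.5 (sham), 94.3 (ECS), 38.8 (vehicle) and 230.2 (fluoxetine). Its log2 ratios were 0.71 and 2.57 at a control spread of 0.32, and sham was above vehicle by 0.57. Its other probe set was below the filter.

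The remaining calls were with fluoxetine only, and the difference between treatments was not tested. Grb2, an adaptor of receptor tyrosine kinases, had scaled signals of 503 (sham), 694 (ECS), 506 (vehicle) and 1233 (fluoxetine), with an ECS ratio of 0.46 and a fluoxetine ratio of 1.29, both log2. Its other probe set had 0.09 and 0.80, with sham above vehicle by 0.65. Grip1, a PDZ protein that binds B-type ephrins, had 0.23 and 0.93, but its other probe set had 0.51 with fluoxetine, under 1.5-fold. Ptprf, a receptor phosphatase, had 0.22 and 0.74, with sham above vehicle by 0.34 and fluoxetine less than 1.5-fold above sham. Its further probe sets had 0.81 and 0.98 with fluoxetine, the last with sham above vehicle by 0.89. Tle4, a transcriptional corepressor, had -0.27 and -0.72, from scaled signals of 1102 (sham), 913 (ECS), 1347 (vehicle) and 819.5 (fluoxetine). Sham over vehicle was -0.29 for Tle4, and fluoxetine was less than 1.5-fold below sham. Nck2, an adaptor of B-type ephrins in reverse signalling, had -0.01 and -0.18.

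**Figure D4:**
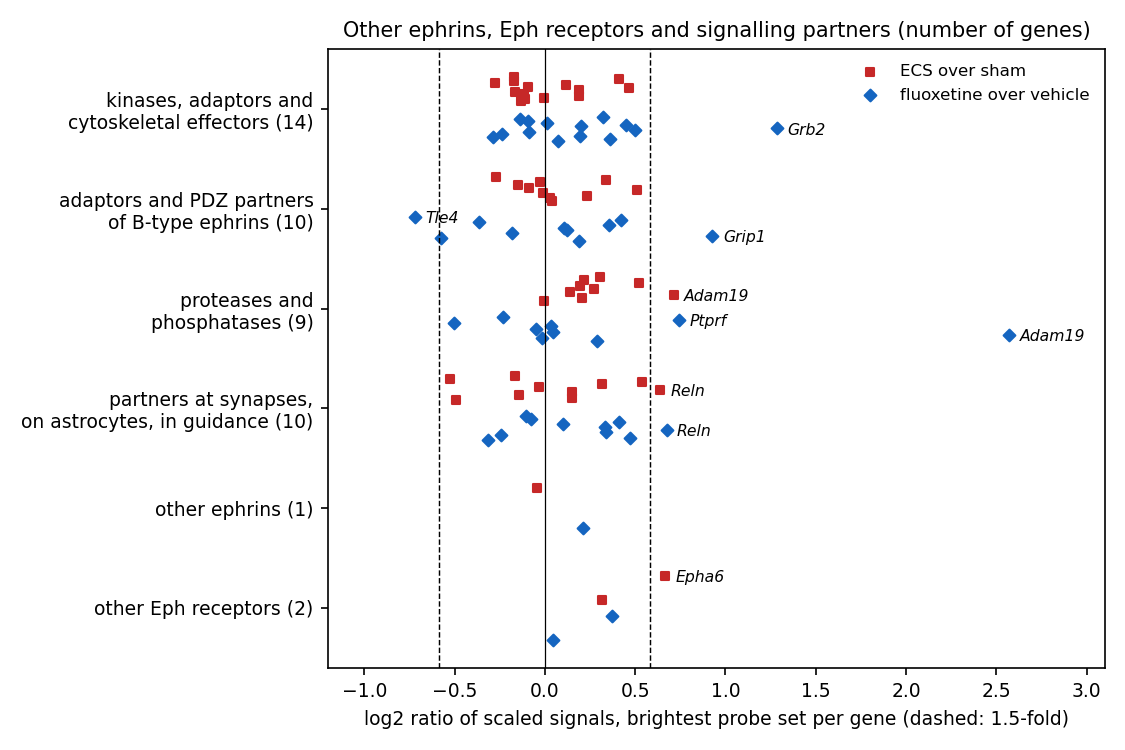
Log2 ratios with ECS (squares) and with fluoxetine (diamonds) for the other ephrins and Eph receptors and for genes that act with them, each by its brightest probe set, in 6 lists with the number of genes in parentheses and genes beyond 1.5-fold (dashed lines) named. Most genes lie within the lines, and Adam19 with fluoxetine, at 2.57, lies farthest out.

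The genes whose pattern was most like that of Ephb6 were sought over the 7935 genes by the distance between their 3 log2 ratios (ECS over sham, fluoxetine over vehicle and sham over vehicle), which come from only 4 arrays. The nearest was Gpnmb, a transmembrane glycoprotein, at a distance of 0.19, with log2 ratios of 2.33 and 1.70. Col5a2, a collagen chain, had 2.04 and 1.68 from control signals of 22.2 and 24.6. The G protein-coupled receptor gene Gpr83 had 2.07 and 1.94, Bdnf, the brain-derived neurotrophic factor, 1.88 and 1.56, and Rprm, which encodes reprimo, 1.85 and 1.59 at a distance of 0.42. The second probe set of Bdnf had 1.45 and 1.46. For Efnb2 the nearest genes were Abcc8, a subunit of ATP-sensitive potassium channels, with -1.10 and -1.64 at a distance of 0.32, Mme, which encodes the protease neprilysin, with -1.34 and -1.51, and Crym, a thyroid hormone binding protein, with -0.87 and -1.52. These were followed by Nt5dc2 with -1.02 and -1.64 and Spon1, an extracellular matrix protein, with -1.09 and -1.23 at 0.43. The Efnb2 list was added after its values were seen.

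Marker genes placed these values in the tissue. Prox1, the fate determinant of granule cells, was present on all arrays, with scaled signals of 127 to 139. Ttr, the main marker of choroid plexus, was below the signal filter. Of 12 markers of mature granule cells 9 were measured, of which none was higher, 4 were lower with ECS and 5 were lower with fluoxetine. Over all 7935 genes, 5.34% were higher and 4.18% lower with ECS, and 5.82% and 5.13% with fluoxetine. The summed scaled signal of the 9 markers was 10778 (sham), 6076 (ECS), 10962 (vehicle) and 4764 (fluoxetine). Calb1, calbindin, held more of this sum than any other marker, with 4552, 1800, 4545 and 1045 in the same order. It had log2 ratios of -1.34 and -2.12. Prox1, Stxbp6 and Npnt were under 1.5-fold with both treatments. None of the 15 measured markers, of 17, of immature granule cells and neuroblasts was lower. ECS was called higher for 10 and fluoxetine for 5, and their summed signal was 12072, 15496, 12383 and 13332 in the same order of pools.

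For other cell types, the summed signal of 12 endothelial and pericyte markers, of 13 with Pecam1 below the filter, was 3503 (sham), 3819 (ECS), 3482 (vehicle) and 3782 (fluoxetine), and that of all 12 astrocyte markers was 23496 to 24614 over the 4 pools. Of these 12 astrocyte markers, 1 was called higher with ECS and 2 with fluoxetine, against 5.34% and 5.82% of all 7935 genes. None was called lower, against 4.18% and 5.13%. Counts this small are not read as a result about astrocytes. Gfap, a filament protein of astrocytes, had log2 ratios of 2.35 and 2.30, whereas the medians over the 12 were 0.13 and 0.25. Others among the 12 were below 0, such as Slc1a3 at -0.53 and -0.08. The summed signal of 10 of 11 microglia markers was 4737 to 4806 in 3 pools and 5957 after fluoxetine. That of 10 of 13 inhibitory neuron markers was 9093 to 10565, of which Gad1 alone had 4431 in the sham pool. Of these 10 markers, 2 were called higher with ECS and 3 with fluoxetine, and 0 lower. Gad2 had log2 ratios of 0.84 and 0.84. Reln, named above among the partners, is in this list too, and Vip was higher with fluoxetine only (0.81). For 8 of 15 pyramidal cell markers the summed signal was 6028 to 6427, of which Nptx1 alone had 3965 to 4524. With ECS 1 of the 8 was higher (Bok, 0.94) and 1 lower (Pou3f1, -1.12). With fluoxetine 2 were higher and 1 lower. The sum was 898 to 1097 for 8 of 14 markers of meninges, choroid plexus and fibroblasts. The members of this last list went both ways, with 2 higher and 2 lower with ECS and 3 higher and 2 lower with fluoxetine. The collagen genes Col3a1 (1.78 and 2.35) and Col1a2 (1.13 and 1.45) were higher with both, and Ogn, a matrix proteoglycan, was lower (-3.34 and -3.18). The summed signal of 5 of 8 mossy cell markers was 1972 (sham), 2525 (ECS), 1699.8 (vehicle) and 1928 (fluoxetine). With ECS 1 of the 5 was higher and 1 lower. Calb2, which is also in the list of immature granule cells, had a scaled signal of 351 (sham) and 682 (ECS), and Calcrl had a log2 ratio of -0.69. The summed signal of 12 of 13 oligodendrocyte markers was 13419 to 14503. The part of these differences in the ratios of Ephb6, Efnb2 and the other members was not tested.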

How the data were processed

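Dentate gyrus RNA of 4 groups (sham, ECS, vehicle and fluoxetine) was hybridized to Affymetrix Mouse Genome 430A 2.0 arrays, 1 pool and 1 array per group. The authors deposited linear signal intensities, which they computed from the single probes with MAS5, per the labels. Background settings and a scaling target are not given in the sources used here. Of 22690 probe sets, 64 controls were left out, and the rest were kept at a mean deposited signal of at least 50 over the 4 arrays, following the study's methods, which left 13422.

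Arrays were scaled to a common median log2 signal because the deposited medians past the filter ranged from 219 to 365. Zeros, all below the filter, were set to 0.1. No test was possible with 1 array per group, and calls are differences of at least 1.5-fold. The number of arrays limits the precision. Python 3.11.15, numpy 2.4.6, pandas 2.3.3 and matplotlib 3.10.9 were used, and the steps were tested on simulated data.

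Gene names came from the platform annotation (20380 probe sets with 1 gene, 691 with several and 1555 with none). All 33 probe sets of ephrins and Eph receptors matched current RefSeq identifiers, with no symbol altered. A gene in a list was represented by its brightest probe set past the filter. All members were named, with the other measured ephrins and Eph receptors, up to 4 called genes of each signalling list, and the 5 genes nearest to the member with the largest mean absolute ratio. Members and lists were chosen with earlier results of these data known, so no pattern here is independent support for those results. Alternatives were the signals as deposited, quantile normalization, a 2% trimmed mean, a pseudocount of 16, a floor of 50, other filters and fold sizes, 1 probe set per gene and exchanged control arrays. One signalling list is counted in the total but is not reported here.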

Additional observations from a re-analysis of the deposited data

How the results depend on the processing

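No ratio of a member called at 1.5-fold changed sign under any alternative, and the 28 treated ratios of the members all moved by less than the control spread with the signals as deposited, quantile normalization, the trimmed mean and the pseudocount. With the control arrays exchanged, 16 of the 28 moved by more, 4 calls were lost and 2 gained. No paired analysis was possible because each group has 1 array, and for the same reason no replicate could be left out. Ratios of dim probe sets are limited by their signal, with control spreads up to 0.41. The causes of the values below were not tested.

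In the main setting 2 members were higher and 2 lower with ECS, and 2 higher and 4 lower with fluoxetine. Of the 58 other family and signalling genes, 3 were higher and 0 lower with ECS, and 5 higher and 1 lower with fluoxetine. Over all probe sets the calls were 713 higher and 559 lower with ECS, and 764 and 663 with fluoxetine. As deposited, 1 member was higher with ECS, and of the 58 genes 1 was higher and 2 lower with ECS. Over all probe sets 512 were then higher and 874 lower with ECS, and 1159 higher and 417 lower with fluoxetine. The members' median of sham over vehicle was then -0.63 in place of -0.12. Quantile normalization gave 2 of the 58 genes lower with fluoxetine. The pseudocount of 16 left 1 member higher and 1 lower with ECS, against 582 and 410 of all 13422 probe sets. The floor of 50 left 1 member higher with ECS, against 644 of all probe sets.

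Without a filter, the array held 22626 probe sets, 3402 higher and 2862 lower with ECS and 2994 and 3270 with fluoxetine. Of the 18 member probe sets, 4 were then lower with ECS. Of 74 family and signalling genes, 8 were higher and 3 lower with ECS and 5 lower with fluoxetine. A mean signal of at least 200 kept 9 member probe sets, of which 1 was higher and 0 lower with ECS and 1 was lower with fluoxetine, with a median of 0.26 with fluoxetine. Over the 8276 probe sets kept, 303 and 206 were then called with ECS and 348 and 267 with fluoxetine. Of 43 family and signalling genes, 1 was higher with ECS and 3 with fluoxetine. With at least 1 array at 50, 1 of 61 family and signalling genes was lower with ECS, against 729 of 14449 probe sets.

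At 2-fold, 1 member was higher and 1 lower with ECS and 1 higher and 2 lower with fluoxetine. Over all probe sets 231 and 128 passed with ECS and 271 and 143 with fluoxetine, and 0 signalling genes were higher with ECS and 2 higher and 0 lower with fluoxetine. At 1.2-fold, 7 members were higher and 4 lower with ECS and 5 higher with fluoxetine. Over all probe sets 2527 and 2198 passed with ECS and 2500 and 2421 with fluoxetine, and 14 signalling genes were higher and 6 lower with ECS and 19 and 11 with fluoxetine. With 1 probe set per gene, 1 of 8 members was higher and 1 lower with ECS, against 424 and 332 of 7935 genes. With fluoxetine 2 members were lower, while of all genes 462 were higher and 407 lower. With the control arrays exchanged, 1 member was higher and 0 lower with ECS, against 921 and 673 of the 13422 probe sets. Of the 58 family and signalling genes, 4 were then lower with ECS and 0 lower with fluoxetine. The members' medians were -0.018 with ECS and 0.21 with fluoxetine.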
